A study of Citrus sinensis with 72 samples.

Results

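The epicarp (EP) at colour break was compared with the epicarp just before it, in 6 of the 72 transcriptome libraries of the ‘Fengjie 72-1’ navel orange (Citrus sinensis). The libraries were chosen by their labels as the 3 replicates of EP5 (stage 5, 180 days after flowering, DAF) and the 3 replicates of EP4 (stage 4, labelled 150 DAF, while the paper's text gives a later day for this stage). Of the 30940 genes in the table, 16606 had a value of 1 or more in at least 3 of the 6 libraries, in FPKM (fragments per kilobase of gene, scaled to the mapped fragments of the library), and were tested. The genes that differed were then followed in the albedo (AL), the segment membrane (SM) and the juice sac (JS) at the same step, and in the EP of stages 3 and 6 (120 and 220 DAF). All 72 libraries came from 9 trees of 1 cultivar, grafted on Poncirus trifoliata in a single orchard. Each replicate pooled fruits of 3 trees. The paper describes the tissues as separated by hand, in turn, from the sampled fruit. Libraries of different tissues at 1 stage can therefore share fruits, and they are not independent of each other. The same trees were picked at each stage, so stage and picking date cannot be told apart, and the replicates measure the spread between tree groups of 1 orchard.

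The epicarp, also called the flavedo, is the thin outer peel. It holds the oil glands and the pigments of the skin. At colour break its chloroplasts lose chlorophyll and turn into chromoplasts, which accumulate the carotenoids that give the ripe orange its colour. The albedo below it is white and spongy, while the segment membrane and the juice sacs form the pulp, and citrus fruits ripen without the burst of respiration and ethylene of climacteric fruits. The gene IDs of the table could not be paired with gene names, so genes are given by ID, no role is stated for any of them, and the genes of chlorophyll breakdown or carotenoid synthesis could not be picked out.

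The 6 libraries rest on 16061267 to 20450221 fragments, against 15365222 to 25424357 over all 72. Each EP4 and EP5 library was closest to another replicate of its own group (r = 0.99 to 0.994 across genes, which are not independent replicates), and its highest correlation with a library of another tissue was 0.893 to 0.937. RNA integrity at extraction was lower in replicates 2 and 3 of EP5 than in any EP4 library, and below the limit set for the work. Genes with an FPKM of at least 1 numbered 16567, 16581 and 16563 in the EP4 libraries and 16085, 15923 and 16027 in the EP5 libraries. The groups did not overlap, with means of 16570 ± 9.45 and 16012 ± 82.1 (SD, n = 3; two-sided exact permutation p = 0.1, the smallest that 3 against 3 allows).

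More genes were lower than higher at colour break. Of the 16606 genes tested, 5101 (30.7%) differed between EP5 and EP4 at a Benjamini-Hochberg adjusted p under 0.05 in limma, 1846 of them (11.1%) higher and 3255 (19.6%) lower in EP5. The median difference was 0.78 on the log2(FPKM + 1) scale for the higher genes and -0.87 for the lower genes, and -0.11 for all genes tested. Differences of at least 2-fold were found for 584 higher and 1298 lower genes, and of at least 4-fold for 100 higher and 218 lower genes. The smallest difference called was 0.33, and all folds on this scale understate the change of genes with low FPKM. The 3 EP5 libraries lay wholly above or wholly below the 3 EP4 libraries for 5071 of the genes called, 1833 higher and 3238 lower. Over all genes tested they did so for 7875 (47.4%), above for 2995 and below for 4880. In whole tissue, fewer cells of a kind and less RNA per cell cannot be told apart.

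The balance between the directions depended on the scaling. When the libraries were rescaled by the median ratio of their genes to the geometric mean over the 6 libraries, the median of all genes moved from -0.11 to -0.01, and 5057 genes were called, 2501 higher and 2556 lower, so that 50.5% of the calls were lower in place of 63.8%. Of the original calls 4402 were kept and 0 changed direction. A reversal was hardly possible, since the smallest original call was 0.33, more than the shift of the median. The count also rested on single libraries. It came to 2695 when replicate 2 of EP4 was left out, to 2722 without EP5 replicate 1 and to 3175 without EP5 replicate 2, with 2656, 2681 and 3093 of the original calls kept and 0 in the opposite direction. For the 5071 genes called without overlap between the groups, leaving out a library could not reverse the direction.

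**Figure D1:**
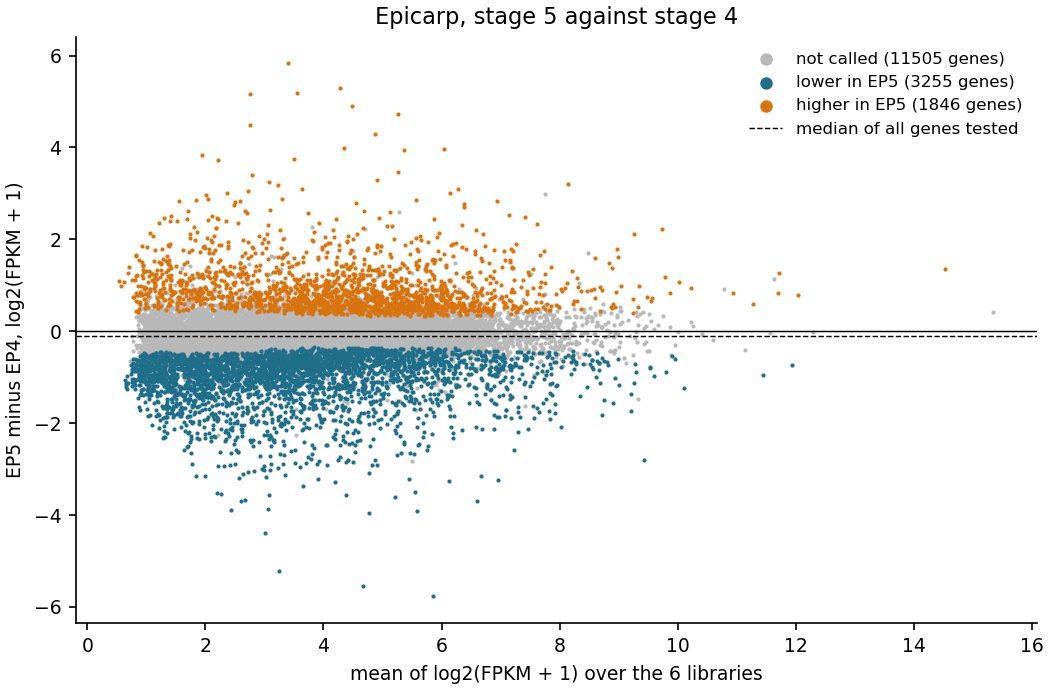
Difference between EP5 and EP4 (vertical axis, log2(FPKM + 1), mean of 3 libraries minus mean of 3) against the mean level over the 6 libraries (horizontal axis, same scale), 1 point per gene tested. The 1846 higher genes (orange) and the 3255 lower genes (blue) lie on both sides of the 11505 genes not called (grey), and the dashed line marks the median of all genes at -0.11.

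The split between the directions varied with the level of the genes. Among the 2606 genes with a mean FPKM over 50 in the 6 libraries, 17.2% were higher and 17.9% lower in EP5. Among the 5379 genes with a mean FPKM of 2 to 10, 7.72% were higher and 21.7% lower. Of the 666 genes tested whose ID starts with neither Cs nor orange1.1t, 23.4% were lower and 7.21% higher. The share of genes called was nearly even over the ID prefixes Cs1g to Cs9g, at 28.6% to 32.2%.

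The difference also varied with gene length. By quartiles of length (limits of 1167, 1721 and 2408 bases), the median difference between EP5 and EP4 was -0.21, -0.15, -0.09 and -0.03 from the shortest to the longest genes. In the shortest quartile 8.23% of the genes were higher and 23.0% lower, and in the longest 12.4% and 14.2%. At the same step the 4 medians were 0.04, 0.02, 0.07 and 0.08 for AL, -0.11, -0.05, -0.09 and -0.25 for SM, and -0.18, -0.10, -0.06 and -0.10 for JS. For EP6 vs. EP3 they went from -0.33 to 0.12. The part of RNA integrity in the differences was not tested.

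The transcripts of the EP shifted toward the higher genes in every replicate. These 1846 genes held 13.2%, 13.4% and 12.7% of the FPKM of the EP4 libraries and 26.8%, 26.8% and 24.3% of that of the EP5 libraries. The 3255 lower genes held 23.3%, 23.2% and 23.6% in EP4 and 10.9%, 11.0% and 11.9% in EP5. Both shares are descriptions, since these libraries chose the genes. The most abundant of the higher genes, Cs5g27060, alone went from 2.25% to 5.69% of the FPKM on average, and without it the higher genes went from 10.8% to 20.3%.

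Outside the 6 libraries, the same genes kept to the side of the nearer stage. The higher genes held 12.4% ± 0.532 (SD, n = 3) of the FPKM in EP3 and 28.7% ± 1.36 in EP6, and the lower genes 23.2% ± 1.21 and 9.69% ± 0.134 (two-sided exact permutation p = 0.1 for each, the smallest possible). The median FPKM of the higher genes was 11.8, 10.8, 13.2 and 14.5 in EP1 to EP4 and 27.0 and 27.2 in EP5 and EP6. That of the lower genes went from 17.0, 15.5, 14.3 and 14.3 to 6.52 and 5.37, and that of the genes not called was 13.1 in EP1 and 12.4 in EP5. Of the higher genes, 950 had their highest mean at stage 6 and 707 at stage 5. Of the lower genes, 2108 had their lowest mean at stage 6 and 777 at stage 5. These counts, and the medians of the stages compared, also used the 6 libraries that chose the genes, which partly fixes them. A higher gene could not peak at the earlier stage compared, nor could a lower gene have its lowest mean there. They are descriptions, with no background of all genes beside them.

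In the test of EP6 vs. EP3, which used none of the 6 libraries, most of these genes were called again in the same direction. Of the 1826 higher genes tested, 1363 (74.6%) were higher in EP6, beside 20.4% of all 16741 genes, and 41 were lower. Of the 3115 lower genes tested, 2342 (75.2%) were lower in EP6, beside 33.1% of all genes, and 43 were higher. Of those that differed at least 2-fold between EP5 and EP4, the same call was made for 507 of 581 higher genes (87.3%) and 1040 of 1237 lower genes (84.1%). The 3705 genes with the same call came to 2188 without replicate 2 of EP4 and 2180 without replicate 1 of EP5.

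At the same step, the share of the higher genes that was called higher in another tissue was above that tissue's background in the AL, SM and JS. Of the 1846 genes higher in EP5, 1727 were tested in AL5 vs. AL4, and 913 (52.9%) were higher in AL5, beside 11.6% of all 15631 genes tested there. Their median difference in the AL was 0.84, as against 0.05 for all genes. In the SM, 645 of 1705 (37.8%) were higher, beside 9.15% of all genes, with a median of 0.46 against -0.13. In the JS, 475 of 1694 (28.0%) were higher, beside 6.63% of all genes, with a median of 0.39 against -0.11. The numbers called in the 3 tissues differ (3442, 2907 and 2257 genes), so the shares are to be read against each tissue's own background, and the order of the tissues was not tested. Tissues of 1 stage came from the same trees and picking, and the part of this in the shared calls was not tested.

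The genes lower in EP5 also had shares above the background in the 3 tissues. In the AL, 916 of 2538 tested (36.1%) were lower, beside 10.4% of all genes, with a median difference of -0.60. For SM the count was 725 of 2504 (29.0%, beside 9.77%) with a median of -0.47, and for JS 700 of 2468 (28.4%, beside 8.4%) with a median of -0.49. For genes that fell at least 2-fold in the EP, AL shared the call for 453 of 836 (54.2%), SM for 366 of 835 (43.8%) and JS for 366 of 803 (45.6%). For genes that rose at least 2-fold it was 387 of 522 (74.1%), 298 of 507 (58.8%) and 225 of 505 (44.6%).

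These counts of shared calls depended on single libraries of either tissue. The 1829 genes with the same call in the EP and the AL came to 848, 1036 and 1202 without replicates 1 and 2 of AL5 and replicate 1 of AL4, and to 1216 and 1130 without replicate 2 of EP4 and replicate 1 of EP5. The 1370 genes shared with the SM came to 700, 579 and 902 without replicates 1, 2 and 3 of SM5, to 874 without replicate 3 of SM4, and to 905 and 882 without replicate 2 of EP4 and replicate 1 of EP5. The 1175 genes shared with the JS came to 306 and 667 without replicates 1 and 2 of JS5, to 380 and 477 without replicates 2 and 3 of JS4, and to 770 and 755 without the same EP libraries. An EP library has no part in another tissue's own test. The share of all genes called in a tissue could therefore move only when its own libraries were left out. Over all libraries of EP and AL left out in turn, the share of the higher genes called in the AL was 25.3% to 65.5%, beside 4.49% to 14.5% of all genes, and that of the lower genes 17.2% to 45.6%, beside 4.45% to 12.1%.

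**Figure D2:**
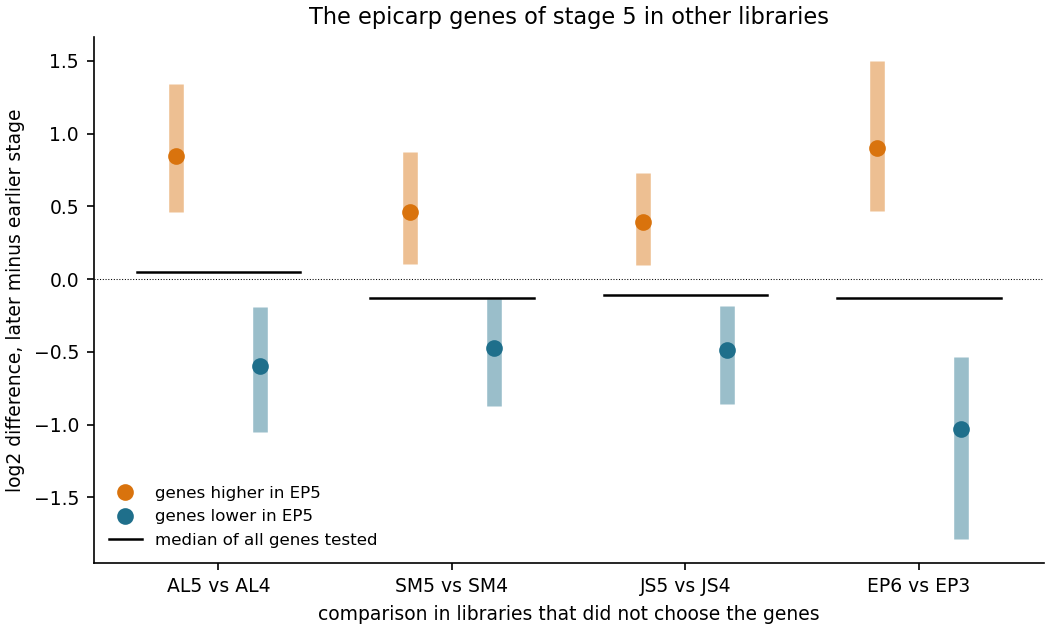
The genes higher (orange) and lower (blue) in EP5 than in EP4, followed in 4 comparisons of libraries that did not choose them. The AL, SM and JS libraries came from the same trees and picking as the EP4 and EP5 libraries. Points are medians of the log2(FPKM + 1) difference of the later minus the earlier stage, bars run from the lower to the upper quartile of the genes, and black lines are the medians of all genes tested, which lie between -0.13 and 0.05 while the higher genes have medians of 0.39 to 0.90.

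Few genes ran against each other between the tissues. Among the 13843 genes tested in all 4 tissues were 1643 of the 1846 higher genes and 2269 of the 3255 lower genes. Of these 1643 higher genes, 288 (17.5%) were higher in all of AL, SM and JS, beside 2.9% of the 13843, while 299 were higher in 2 of these tissues and 480 in 1. No call in the 3 tissues was made for 555 of them (33.8%, beside 66.8%), and 25 (1.52%, beside 16.7%) were called lower in at least 1. Of the 2269 lower genes, 329 (14.5%) were lower in all 3 other tissues, beside 2.98%, with 296 in 2 and 521 in 1. For 1045 (46.1%, beside 66.8%) there was no call, and 85 (3.75%, beside 16.7%) were called higher in at least 1. A further 533 lower and 76 higher genes were tested in none of the 3 tissues.

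Part of the lower genes had no counterpart to test, since they were hardly expressed elsewhere. Of the 3255 lower genes, 459 (14.1%) had a mean FPKM under 1 in AL, SM and JS at both stage 4 and stage 5, as against 62 of the 1846 higher genes (3.36%) and 530 of the 11505 genes not called (4.61%). Among the 1298 genes that were at least 2-fold lower it was 306 (23.6%). The EP had the highest mean of the 4 tissues at stage 4 for 64.1% of the lower genes, 35.9% of the higher genes and 52.6% of the genes not called. At stage 5 it did so for 52.1%, 39.4% and 49.0%. These rankings use the EP4 and EP5 values that chose the higher and lower genes, which partly fixes the contrast. They are descriptions.

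The share of the library in these genes moved in all 4 tissues. The genes higher in EP5 held 14.4% ± 0.525 of the FPKM in AL4 and 26.3% ± 1.2 in AL5, 15.3% ± 0.319 in SM4 and 22.4% ± 1.04 in SM5, and 15.6% ± 0.871 in JS4 and 22.4% ± 0.999 in JS5 (SD, n = 3; two-sided exact permutation p = 0.1 for each, the smallest possible). Without Cs5g27060 these shares went from 13.1% to 21.1%, from 13.6% to 18.2% and from 14.3% to 19.1%. The genes lower in EP5 held 19.1% ± 1.65 of AL4 and 9.76% ± 0.738 of AL5, 16.6% ± 0.203 of SM4 and 11.0% ± 0.381 of SM5, and 15.4% ± 0.404 of JS4 and 10.4% ± 0.491 of JS5. At stage 1 the lower genes had held 30.6% (EP1), 29.7% (AL1), 30.9% (SM1) and 28.9% (JS1), and at stage 3 the shares were 23.2%, 20.8%, 23.0% and 19.2% in that order.

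**Figure D3:**
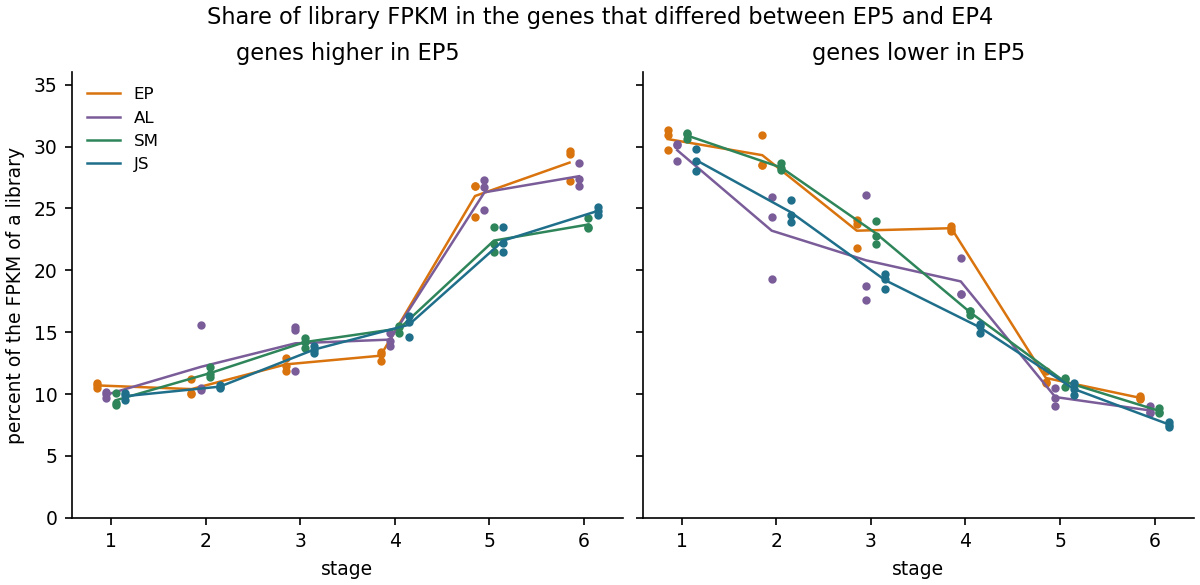
Percent of the FPKM of a library (vertical axis) held by the 1846 genes higher in EP5 (left) and the 3255 genes lower in EP5 (right), by stage and tissue, with 1 point per library and lines through the means of 3. In the EP the share of the higher genes went from 13.1% at stage 4 to 26.0% at stage 5 and that of the lower genes from 23.4% to 11.3%.

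Genes that marked the EP earlier in development were mostly lower at colour break. To find them, genes were taken whose mean level in the EP was 10 FPKM or more and at least 8 times that of each other tissue, on FPKM + 1, at each of stages 1, 2 and 3, so that no library of stages 4 and 5 chose them. There were 104 such epicarp-rich genes. Of the 103 tested, 70 (68.0%) were lower in EP5 than in EP4, 55 of them at least 2-fold and 22 at least 4-fold, beside 19.6% of all genes tested, and the median difference was -1.06. This list was set after the results were seen and has no test of its own. The lists of the other tissues, given below, also had lower medians at stage 5 in their own tissue. The part of choosing genes by a high early level was not tested. Their median FPKM was 77.5 in EP3, 55.2 in EP4, 21.9 in EP5 and 14.5 in EP6.

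Library by library, the median epicarp-rich gene was at 55.9, 53.0 and 55.0 FPKM in EP4 and at 19.2, 28.5 and 22.1 in EP5. The groups did not overlap. The summed FPKM of the 104 genes moved less, from 16400 to 20200 in the EP4 libraries to 12700 to 16200 in the EP5 libraries. With each of the 6 libraries left out in turn, 51 to 67 of the genes were lower, and under median ratio scaling 60 were. The single epicarp-rich gene called higher, Cs4g02410, was singled out for this. It was at 17.5, 19.9 and 14.6 FPKM in EP4 and at 75.0, 95.8 and 52.0 in EP5, a difference of 2.01 (standard error 0.22, adjusted p = 0.000873 from limma), and it stood at 106 to 138 in EP6. The rise was not confined to the EP, as the gene went from 0.141, 0.727 and 0.493 in AL4 to 19.9, 10.8 and 17.8 in AL5. The gene left untested, orange1.1t05126, was at no more than 0.259 FPKM in EP4.

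The same epicarp-rich genes had a median FPKM of 0.352 in AL4 and 0.575 in AL5, and of at most 0.304 in the SM and JS of both stages. Their summed FPKM in those tissues was higher at stage 5, opposite to the EP, with 310 to 490 in AL4 and 1710 to 1960 in AL5, 181 to 210 in SM4 and 415 to 644 in SM5, and 610 to 707 in JS4 and 958 to 1360 in JS5. Genes that marked the other tissues by the same rule at stages 1 to 3, each against the EP alone, were looked at in the EP as a check of the hand dissection. The 13 albedo-rich genes had a median FPKM of 2.14 in EP4 and 1.52 in EP5 as against 34.6 in AL4 and 23.2 in AL5. Their summed FPKM went from 245 to 519 in the EP4 libraries to 912 to 1800 in the EP5 libraries, and of the 7 tested, 2 were higher and 2 lower. The summed FPKM of the 29 genes rich in the SM went from 318 to 571 in the EP4 libraries to 956 to 1870 in the EP5 libraries, with 3 of 19 tested higher and 5 lower. For the 44 genes rich in the JS it went from 1290 to 1540 to 2070 to 3840, with 8 of 27 higher and 7 lower. Beside these counts, 11.1% of all genes tested were higher and 19.6% lower. The median FPKM of the genes rich in the SM was 2.29 in EP4 and 1.32 in EP5, and of those rich in the JS 2.88 and 2.64. In their own tissue the medians were 39.3 in SM4 and 22.7 in SM5, and 61.1 in JS4 and 45.8 in JS5. The part of the genes rich in other tissues in the differences between EP5 and EP4 was not tested.

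**Figure D4:**
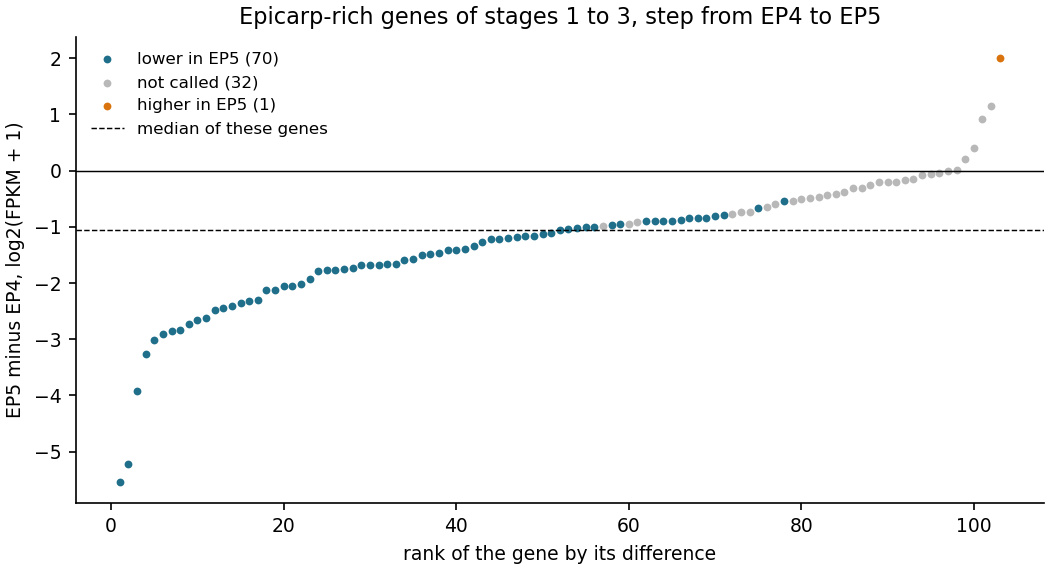
Difference between EP5 and EP4 on the log2(FPKM + 1) scale (vertical axis) for the 103 epicarp-rich genes tested, ordered by that difference (horizontal axis). Of these genes, 70 were called lower (blue), 32 were not called (grey) and 1 was called higher (orange), and the dashed line marks their median at -1.06.

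Complete switches were rare. Only 9 of the genes called went from a mean FPKM under 1 in EP4 to 10 or more in EP5, and 11 went the other way. Of the 9 genes switched on, 8 also had at least 10 FPKM in EP6 and 7 had been under 1 in all of EP1, EP2 and EP3. Each of the 9 had a mean of 1 FPKM or more in some other tissue at stage 4 or 5, and 6 reached at least 10 FPKM in AL5, 5 in SM5 and 5 in JS5. Of the 11 genes switched off, all 11 were under 1 in EP6, and 6 were under 1 in AL, SM and JS at both stages.

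The 2 genes with the largest increase were higher in all 4 tissues at this step. Cs9g16640 was at 0.249, 0.66 and 0.335 FPKM in EP4 and at 77.9, 75.0 and 83.8 in EP5, with no EP4 library near any EP5 library. The difference was 5.83 (standard error 0.15, adjusted p = 3.4e-06 from limma). Cs9g16640 passed the filter through the EP5 libraries alone, so the higher group decided its entry to the test. The gene was all but silent in the 4 tissues at stages 1 and 2, at no more than 0.618 FPKM in any library. At stage 3 it was higher in the pulp, where the JS was at 35.4, 85.2 and 128 FPKM and the SM at 9.38, 22.2 and 12.9, while EP3 was still at 0.184, 0.411 and 0.654. By stage 6 it stood at 299 ± 7.26 FPKM (SD, n = 3) in the EP and at 524 ± 88.7, 506 ± 76.9 and 993 ± 89.9 in AL6, SM6 and JS6.

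The other gene, Cs6g12880, was at 0.253, 2.2 and 6.34 FPKM in EP4 and at 77.8, 102 and 222 in EP5, a difference of 5.30 (standard error 0.63, adjusted p = 0.00121 from limma). Its replicates spread widely within both groups, without overlap. It was at no more than 0.135 FPKM in any library of stage 2. At stage 3 the JS stood at 17.6 ± 2.21 FPKM (SD, n = 3) and the SM at 2.66, 3.58 and 1.99, while EP3 and AL3 were at no more than 0.275. In the AL it went from 0.351, 1.67 and 1.34 at stage 4 to 182, 109 and 170 at stage 5. For neither gene did the difference between the steps of EP and AL pass the threshold (a difference of 0.18 with a standard error of 0.55 for Cs9g16640 and of -0.91 with a standard error of 0.64 for Cs6g12880, adjusted p = 0.9 and 0.455 from limma). The EP step of Cs9g16640 exceeded that of the SM by 2.60 and that of the JS by 4.23 (adjusted p = 0.00331 and 2.2e-05 from limma), and the EP step of Cs6g12880 exceeded that of the JS by 2.95 (adjusted p = 0.00447 from limma). Against the SM the latter difference was 1.14 (adjusted p = 0.325 from limma).

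The 2 genes with the largest decrease stood far higher in the EP than in the other tissues at stage 4. Cs5g25590 was at 294, 442 and 595 FPKM in EP4 and at 10.9, 4.95 and 5.8 in EP5, a difference of -5.77 (standard error 0.32, adjusted p = 0.000107 from limma). Its course was not a steady decline. It was at 568 ± 119 FPKM in EP1, dropped to 30.1 ± 16.4 in EP3, came back in EP4 and was at 0 in the 3 libraries of EP6. Outside the EP it had been at 235 ± 72.2 FPKM in SM2 and 201 ± 37.7 in JS2 (SD, n = 3), but was at no more than 4.7 at stage 4. From that low level it fell in the SM and JS too, by differences of -1.81 and -1.62 that passed the threshold. The AL was below the filter.

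Cs5g18930 was at 77.9, 151 and 434 FPKM in EP4 and at 3.1, 1.3 and 4.52 in EP5, a difference of -5.54 (standard error 0.59, adjusted p = 0.000833 from limma). It held between 140 and 380 FPKM on average in EP1, EP2 and EP3 and was at no more than 0.0755 in EP6. In the 54 libraries of the other tissues it never passed 0.662 FPKM, so that it was not tested in any of their steps.

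By difference in mean FPKM, the most abundant transcripts led. Cs5g27060, a gene of 408 bases by the length recovered from the FPKM steps, was at 14100, 14600 and 15400 FPKM in EP4 and at 39500, 43100 and 31800 in EP5. The difference was 1.36 (standard error 0.19, adjusted p = 0.00184 from limma). It was shared by the whole fruit, with differences of 2.18 for AL, 1.44 for SM and 1.38 for JS, each past the threshold.

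Cs9g02190 moved in opposite directions in the EP and the pulp. It rose in the EP from 2360, 2460 and 1760 FPKM to 6590, 4630 and 4640, a difference of 1.26 (standard error 0.21, adjusted p = 0.00433 from limma), after 400 ± 34.4 in EP3. In the pulp it fell at the same step, from 192, 206 and 169 to 76.8, 54.9 and 67.9 for SM and from 313, 417 and 298 to 189, 182 and 170 for JS (differences of -1.50 and -0.91, adjusted p = 0.00109 and 0.0121 from limma). In the AL, where it was at 1.2 to 15.7 FPKM, the difference was 1.33 (adjusted p = 0.0822 from limma), and the steps of EP and AL differed by -0.07 (standard error 0.47, adjusted p = 0.959 from limma). The EP step exceeded the mean of the 3 tissues by 1.62 (adjusted p = 0.0067 from limma).

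Among the abundant transcripts that fell, Cs6g11770 was at 5480, 4890 and 4860 FPKM in EP4 and at 2870, 2970 and 3240 in EP5, a difference of -0.75 (standard error 0.15, adjusted p = 0.00914 from limma). Its length by the recovered steps is 237 bases. The call was lost without replicate 1 of EP5 (-0.71). Cs4g09550 went from 3660, 5040 and 3230 to 2390, 1680 and 2020, a difference of -0.96 (standard error 0.22, adjusted p = 0.0144 from limma), and to 410, 391 and 326 in EP6. It was almost absent from the AL and SM, at no more than 3.23 FPKM in stages 4 and 5. In the JS it fell too, from 9.7, 5.55 and 5.62 to 1.84, 1.78 and 1.38 (-1.54, adjusted p = 0.00833 from limma). The steps of EP and JS differed by 0.58, which did not pass the threshold (adjusted p = 0.365 from limma). The EP call of Cs4g09550 was lost without replicate 2 of EP4 (-0.78) or replicate 2 of EP5 (-0.83).

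Which genes moved differently in the EP than elsewhere was tested directly, as the difference between the step of the EP and the step of another tissue in 1 fit of the 24 libraries of stages 4 and 5. Against the AL 1847 of 18109 genes differed (10.2%), against the SM 1713 (9.46%) and against the JS 1535 (8.48%). The EP had the more negative step for 1333, 1284 and 1064 of these genes. Against the mean of the 3 tissues 1884 genes differed (10.4%), of which 477 were more positive and 1407 more negative in the EP. This split is partly fixed by the filter, since a gene near 0 in another tissue entered through the EP and could hardly fall there on this scale. Among genes that passed the filter in each tissue compared, 719 of 1060 were more negative in the EP against the AL (67.8%), 643 of 924 against the SM (69.6%) and 486 of 822 against the JS (59.1%). With median ratio scaling these shares were 56.0%, 70.4% and 55.5%. With limma-voom on the recovered fragments the counts against AL, SM and JS were lower, at 1010, 805 and 658.

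Among the genes higher in EP5, Cs2g09850 had the largest difference from the other tissues by this test. It was at 0.93, 0.515 and 1.51 FPKM in EP4, at 59.8, 61.6 and 92.4 in EP5 and at 235, 235 and 164 in EP6. At stage 5 the other tissues were at 0.987 to 5.07 (AL), 3.99 to 6.38 (SM) and 5.6 to 8.93 (JS). The SM and JS rose too, by differences of 1.46 and 1.17 that passed the threshold, and the AL was below the filter. The step of the EP was 5.19 (standard error 0.23) and exceeded the mean of the others by 3.81 (standard error 0.38, adjusted p = 5.49e-07 from limma).

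Novel01092 came next but rested on an uneven group. It was at 7.95, 8.16 and 13.1 FPKM in EP4 and at 706, 102 and 56.8 in EP5, so that replicate 1 of EP5 stood apart from the other two. It was transient, as EP6 was back at 19.7, 15.9 and 16.6, and no library of the other tissues at stages 4 and 5 passed 4.14. The difference between EP5 and EP4 was 3.94 (standard error 0.81, adjusted p = 0.00979 from limma) and, over the alternatives, 2.87 to 4.68, the lowest being the value without that replicate. It exceeded the step of the other tissues by 3.77 (standard error 0.67, adjusted p = 0.000543 from limma).

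Of the genes lower in EP5, Cs5g18930, described above, and Cs5g16770 had the most negative differences from the other tissues, at -5.39 and -4.95. Both were under 1 FPKM in every library of the other tissues at stage 4. They could fall by little there on the log2(FPKM + 1) scale, so these values mostly restate the fall in the EP. From that low level Cs5g16770 went from 0.453, 0.735 and 0.487 FPKM in AL4 to 0 in AL5. With limma-voom the differences were -4.11 for Cs5g18930 and -4.00 for Cs5g16770. Cs5g16770 was at 75.6, 58.0 and 42.1 FPKM in EP4 and at 0.769, 0.226 and 0.727 in EP5, a step of -5.22 (standard error 0.24). It passed the filter through the EP4 libraries alone, so the higher group decided its entry to the test. The step from EP4 to EP5 was the end of a long decline, from 3110, 2970 and 1970 FPKM in EP1 through 144 ± 41.0 in EP3. The other tissues had declined earlier, from 287 ± 170 in AL1, 30.0 ± 9.94 in SM1 and 192 ± 72.8 in JS1 to under 1 FPKM in every library of stage 4.

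Some genes rose or fell in all 4 tissues at this step. Cs7g28370 rose from 25.1, 30.5 and 17.8 FPKM to 202, 142 and 279 in the EP, and its differences for EP, AL, SM and JS were 3.01, 3.76, 3.28 and 3.88. Cs5g09370 rose from 2.25, 3.14 and 4.01 to 126, 139 and 102 in the EP, with differences of 4.91, 3.91, 2.99 and 2.78 in the same order. Its EP step exceeded that of the SM by 1.92 and that of the JS by 2.13 (adjusted p = 0.00821 and 0.0038 from limma). Before the step the EP had the least of Cs5g09370, whose levels were 9.0 to 28.4 FPKM in AL4, 30.8 to 65.9 in SM4 and 46.9 to 66.3 in JS4. Each of these differences passed the threshold in its own tissue.

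Cs2g22820 fell in the 4 tissues, with differences for EP, AL, SM and JS of -2.69, -4.65, -2.42 and -3.57. In the EP it went from 7.59, 44.1 and 42.7 FPKM to 2.61, 2.67 and 3.73, and the call was lost without replicate 1 of EP5 (-2.62). Cs8g14700 fell from 78.5, 37.2 and 30.0 to 5.26, 7.92 and 3.02 in the EP, with differences of -2.90, -2.42, -3.23 and -2.31 in the same order. It had been at 478 ± 187 FPKM in AL1, 221 ± 50.7 in SM1 and 230 ± 31.3 in JS1 but at 32.7 ± 8.42 in EP1.

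**Figure D5:**
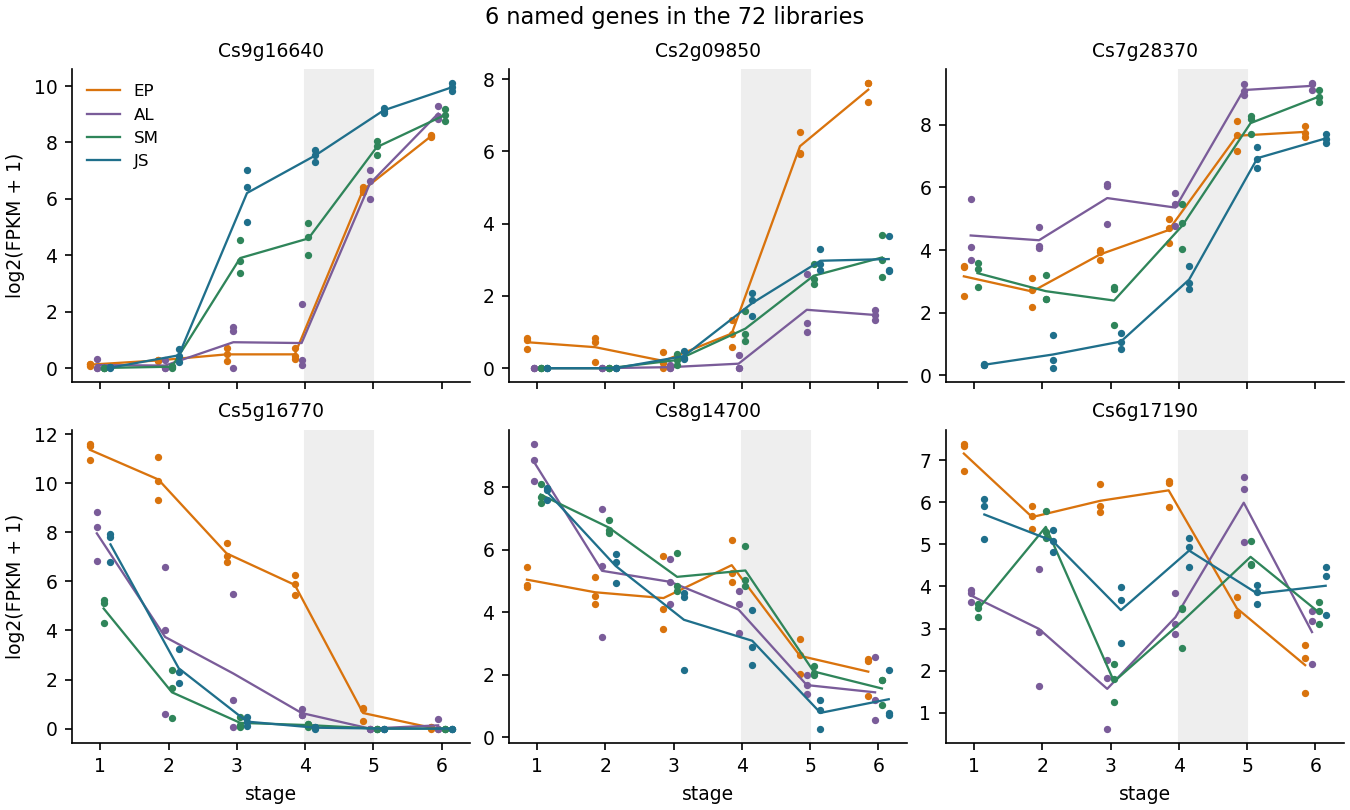
Level of 6 named genes (vertical axes, log2(FPKM + 1)) by stage in the 4 tissues, with 1 point per library, lines through the means of 3, and the step from stage 4 to stage 5 shaded. Cs9g16640 was at 9.38 to 128 FPKM in the SM and JS at stage 3 and under 2 FPKM in the EP and AL, Cs2g09850 reached 59.8 to 92.4 FPKM in EP5, and Cs6g17190 fell in the EP while it rose in the AL and SM.

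Opposite steps were the exception. Cs6g17190 fell in the EP from 58.3, 86.3 and 89.9 FPKM to 12.4, 9.03 and 9.32, a difference of -2.80 (standard error 0.20, adjusted p = 0.000166 from limma). In the AL it rose from 7.64, 13.3 and 6.26 to 78.1, 96.3 and 32.2 (2.72, adjusted p = 0.00279 from limma) and in the SM from 4.85, 10.1 and 10.3 to 32.8, 21.7 and 22.0 (1.53, adjusted p = 0.0103 from limma), so that the tissue with the highest level changed from EP to AL. In the JS it fell by 1.02 on the log2 scale. The rise did not last, as AL6 was at 7.07 ± 3.25 (SD, n = 3).

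Cs7g03770 fell in the EP from 46.3, 86.2 and 43.8 FPKM to 3.8, 3.73 and 7.82 (-3.28, standard error 0.32, adjusted p = 0.00064 from limma). It rose in the AL from 4.56, 7.74 and 5.87 to 19.3, 15.6 and 15.2 and in the JS from 1.06, 1.27 and 1.15 to 2.71, 3.03 and 2.93. The EP step differed from the mean of the other tissues by -4.46 (standard error 0.39, adjusted p = 6.87e-08 from limma).

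In the other direction, 2 genes rose in the EP and fell in the JS. Cs9g11050 went from 5.35, 7.82 and 4.34 FPKM to 14.8, 16.1 and 9.3 in the EP and from 4.26, 17.2 and 9.04 to 0.331, 0.594 and 0.587 in the JS, and orange1.1t02887 from 40.7, 48.2 and 50.0 to 103, 109 and 59.4 in the EP and from 71.1, 166 and 97.1 to 15.7, 17.4 and 9.8 in the JS. The EP differences were 1.07 and 0.91 (adjusted p = 0.0153 and 0.0207 from limma), and the EP and JS steps differed by 3.79 and 3.73 (adjusted p = 0.000241 and 8.35e-05 from limma). Against the mean of the other tissues the difference of Cs9g11050 was 1.74, and its call was lost without replicate 1 or 3 of EP4 and without replicate 1 or 2 of EP5. The rise of both genes in the EP lost its call in 1 fit of 24 libraries and without replicate 1 or 2 of EP5, and that of orange1.1t02887 also without replicate 1 or 2 of EP4.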

How the data were processed

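Poly(A) mRNA, purified from the total RNA of 4 tissues at 6 stages, was sequenced in 72 libraries, 3 replicates each. The authors filtered the reads, mapped them with TopHat 2.0.12 and deposited 1 FPKM value per gene and library (HTSeq 0.6.1). Cufflinks also stands in the submitters' processing notes. The genome build is not given in the sources used here. Whether strand was used in counting is not stated, so overlapping and near-identical genes are uncertain. All 72 columns were matched by name. The authors' own tests were made on counts, which were not used here.

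FPKM values step in whole fragments, which were recovered, with gene lengths, for 27759 of the 27759 genes above 0 (tolerance 0.0001 fragments). The range over all libraries was 15365222 to 25424357 fragments. Tests used limma 3.58.1 in R 4.3.3 (eBayes, trended and robust) on log2(FPKM + 1), with an adjusted p under 0.05. Genes entered when 3 or more of the 6 libraries compared reached 1 FPKM. Differences between the steps of 2 tissues were contrasts in 1 fit of 24 libraries, where genes entered when 3 or more of the 24 reached 1 FPKM (18109 genes). The scripts were tested on simulated data. Single values were compared with exact permutation tests, two-sided.

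The libraries, gene lists and tests were chosen with earlier results of these data known. Of the 30940 IDs, 0 matched the 29331 genes of the reference table (assembly DVS_A1.0), so lists of named pathways were not run. Genes named had an adjusted p under 0.05, no overlap between EP4 and EP5 and, in the higher group, 10 FPKM or more on average (3331 genes). From these, the 2 highest and 2 lowest were taken by log2 difference, by difference in mean FPKM, by difference from the mean of the other tissues where that was called too, by the smallest step among 4 tissues called alike (476 genes), and by the largest difference from a tissue called the opposite way (101 genes). The epicarp-rich list was added after the results were seen. Alternatives were a pseudocount of 0.1, no filter, median ratio scaling, limma-voom on recovered fragments, the replicate number as a block, 1 fit of 24 libraries, and each replicate left out. A block of the replicate number within each stage was added after seeing the data. Tables were made with pandas 2.3.3 under Python 3.11.15, figures with matplotlib 3.10.9.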

Additional observations from a re-analysis of the deposited data

Results flagged for a closer look

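The step from stage 4 to stage 5 differed between the EP and other tissues for 1847 genes against the AL, 1713 against the SM, 1535 against the JS and 1884 against the mean of the 3 (limma, adjusted p under 0.05). Of the named genes, Cs2g09850 (3.81 on the log2 scale), Novel01092 (3.77), Cs9g16640 (2.34), orange1.1t02887 (2.14), Cs9g11050 (1.74), Cs5g09370 (1.68) and Cs9g02190 (1.62) had the more positive step in the EP by the test against the mean of the other tissues. Cs5g18930 (-5.39), Cs5g16770 (-4.95), Cs5g25590 (-4.49), Cs7g03770 (-4.46), Cs6g17190 (-3.88) and Cs6g11770 (-0.95) had the more negative step. The call of Cs9g11050 was lost in 4 of the fits that leave out a library. Cs5g18930 and Cs5g16770 were under 1 FPKM in the other tissues at stage 4, where they could fall by little on the log2(FPKM + 1) scale. With limma-voom their differences were -4.11 and -4.00. Cs5g25590 was at no more than 4.7 FPKM in the other tissues at stage 4, and the size of its difference depended on the scale. It was -2.07 with limma-voom and -3.10 with a pseudocount of 0.1. With 3 libraries a group, single libraries far from the others were not tested for.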

How the results depend on the processing

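In EP5 vs. EP4, 0 of the 5101 calls changed direction under any alternative. This was largely fixed in advance, since 5071 of these genes had no overlap between the groups. The count was 5031 with limma-voom, 5157 with no filter, 4663 in 1 fit of 24 libraries and 5070 with a pseudocount of 0.1. In that single fit AL5 vs. AL4 had 5886 genes called in place of 3442, where the 24 libraries share 1 estimate of the spread. The tests between tissues gave 1010 genes (AL), 805 (SM) and 658 (JS) with limma-voom, and 1132 (SM) and 953 (JS) with a pseudocount of 0.1. The cause was not tested. With each library left out in turn, the calls were 2695 to 4765 for EP5 vs. EP4 (at least 2-fold: 1502 to 1954), 6253 to 8121 for EP6 vs. EP3, 1368 to 3759 for the AL, 975 to 4408 for the SM and 490 to 3152 for the JS. Calls shared with the EP were 848 to 1881 (AL), 579 to 1731 (SM), 306 to 1288 (JS) and 2180 to 3395 (EP6 vs. EP3). The tests between tissues gave 1267 to 2146 (AL), 1183 to 1713 (SM), 1072 to 1596 (JS) and 1328 to 1723 (mean). Of the values of named genes under the alternatives, 359 kept their side of the threshold, 16 lost their call and 0 reversed. Fits in which a gene fell below the filter are not among these values. This holds for Cs9g16640 in EP5 vs. EP4 when an EP5 library was left out, and for Cs5g16770 when an EP4 library was.

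The deviations of same-numbered libraries of EP4 and EP5 had r = 0.224, -0.0023 and 0.0302. No source says which trees a number stands for, so no pairing was assumed between stages. Between tissues of 1 stage, r was above 0 in each same-numbered pair of EP and AL (0.129 to 0.156 at stage 4, 0.188 to 0.379 at stage 5). At stage 5 it was 0.0357 to 0.253 for EP with SM and 0.0926 to 0.317 for EP with JS. At stage 4 it was -0.008 to 0.289 for EP with SM and -0.045 to 0.265 for EP with JS. With the replicate block EP5 vs. EP4 had 4632 genes called (at least 2-fold: 1901), EP6 vs. EP3 9353, AL 3645, SM 2841 and JS 1693. With a replicate block within each stage, added after seeing the data, the tests between tissues gave 1978 (AL), 1859 (SM), 1691 (JS) and 2060 (mean), and no named gene called against the mean lost its call. Depth limits what can be said of the 14334 genes not tested, of which 6955 were at 0 in all 6 libraries.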
